A study of Mus musculus with 12 samples.

Results

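The genes described here are the WNT ligands, their receptors and the secreted or membrane proteins that modulate them, measured in adipocyte precursor cells sorted from mouse fat. They were chosen by name: every deposited gene whose symbol belongs to the Wnt, Frizzled, Sfrp, Dkk or R-spondin families, with Lrp5, Lrp6, Frzb, Lgr4, Znrf3 and Axin2, that had at least 10 counts in at least 3 libraries. All 35 matching genes of the 14398 in the table met that minimum, and all 35 also passed the low-count filter of the test. They comprised 11 Wnt ligands, 10 Frizzled receptors, 2 co-receptors (Lrp5 and Lrp6) and 6 secreted inhibitors, so grouped by family name (Sfrp1, Sfrp2, Sfrp4, Frzb, Dkk2 and Dkk3). The other members were the R-spondins Rspo1, Rspo2 and Rspo3 with their receptor Lgr4, the receptor-removing ubiquitin ligase Znrf3, and Axin2. Wif1 and Rnf43 were not analysed here.

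As background, WNT ligands are secreted lipid-modified proteins that bind Frizzled receptors together with Lrp5 or Lrp6. This binding stops the destruction of beta-catenin, which then enters the nucleus and works with TCF and LEF factors. Other WNT ligands, Wnt5a and Wnt5b among them, act mostly through routes that do not need beta-catenin, such as planar polarity and calcium signalling. R-spondins bind Lgr receptors and keep Znrf3 from removing Frizzled receptors, so they raise the response to a ligand. Sfrp proteins and Frzb bind WNT ligands or Frizzleds, and Dkk2 binds the co-receptors. Axin2 is a scaffold of the destruction complex that is itself a widely used target of beta-catenin. In adipocyte precursors, beta-catenin signalling, with Wnt10b as its best known ligand, is known to hold cells back from becoming adipocytes.

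The libraries came from male C57Bl6/J mice of 6 to 8 weeks with no transgene or deletion in the labels. Precursors were sorted from visceral (VWAT) or subcutaneous (SWAT) white fat as CD45-/CD31- cells that carried CD29, CD34 and Sca1, with CD24-negative and CD24-positive cells both kept. The mice were on standard diet (SD, taken as day 0) or had eaten a high-fat diet (HFD) with 60% lard for 3 days. The labels name no standard diet group at day 3. Diet and day therefore cannot be told apart in any diet comparison below. Each of the 4 groups had 3 libraries, and each library was pooled from 3 mice, so the spread between libraries is that between pools. Poly(A) RNA was read as 75-base single-end reads.

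Counts assigned to genes ran from 17630284 to 56094076 per library, and the 35 genes took 0.130% to 0.181% of them. Positive markers were seen in the RNA: Cd34, Ly6a (Sca1) and Pdgfra were high in every library. The summed level of 5 mature adipocyte markers stayed between 1.72 and 5.61 CPM (counts scaled to library size with TMM factors). The CD31-negative side was less clear. The 8 endothelial markers, Pecam1 (CD31) among them, summed to 195 to 248 CPM in VWAT_SD and 217 to 317 in SWAT_SD. On high-fat diet they summed to 187 to 229 and 247 to 317. The part of endothelial cells in the WNT values was not tested. The depots were not equal in the gate markers. The 8 gate and mesenchymal markers summed to 8053 to 9135 CPM in VWAT_SD and 26410 to 28430 in SWAT_SD, with 0 called higher and 5 lower in VWAT. On high-fat diet the sums were 10440 to 18570 and 35110 to 69210, with 1 higher and 4 lower. The part of this in the depot differences of the WNT genes was not tested. VWAT_HFD replicate 3 stood apart from the other VWAT_HFD libraries, at -2.05 on the second principal component against 37.0 and 46.0, with the VWAT_SD libraries between -32.4 and -24.4. SWAT_HFD replicate 2 carried the leukocyte gene Ptprc at 6.93 CPM, against at most 0.656 CPM in the other 11 libraries.

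**Figure D1:**
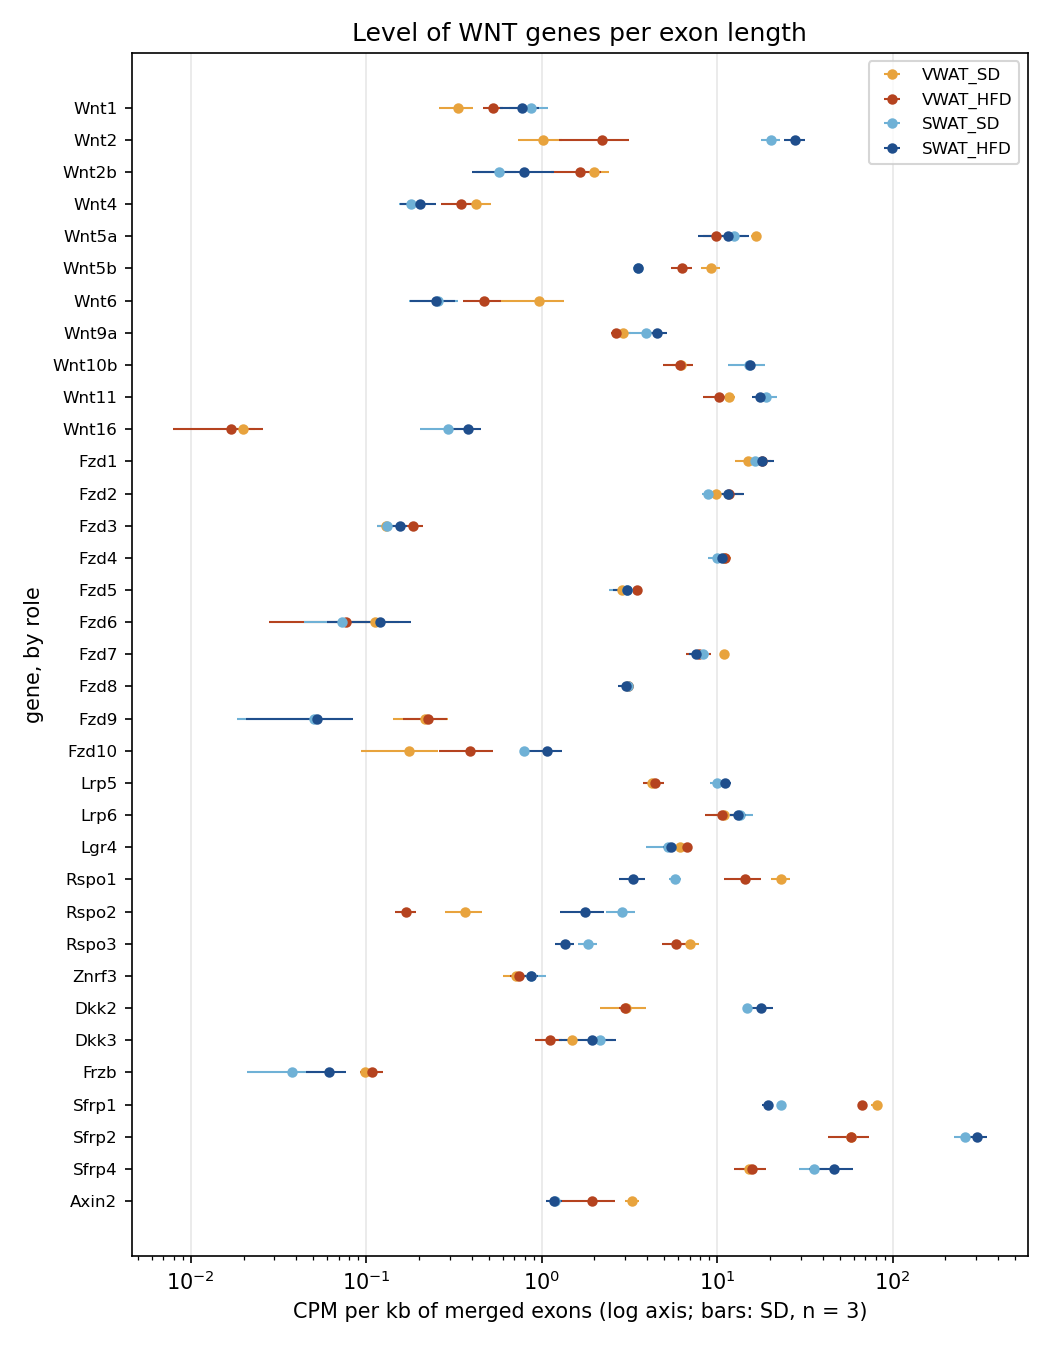
Mean level of each WNT gene in the 4 groups, as CPM per kb of merged exons on a log axis, with genes ordered by role and bars showing the SD of 3 libraries. Sfrp1 in VWAT (81.2 and 67.1) and Sfrp2 in SWAT (259 and 302) lie furthest along the scale, and Wnt2, Wnt16, Rspo2 and Dkk2 show SWAT points far to the right of the VWAT points.

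Per kb of exon, the most abundant of the 35 transcripts were secreted inhibitors, Sfrp1 in VWAT and Sfrp2 in SWAT, while Frzb, another inhibitor, was among the lowest. Sfrp2 reached 259 ± 34.7 CPM per kb (SD, n = 3) in SWAT_SD and 302 ± 42.4 in SWAT_HFD, against 58.2 ± 4.73 in VWAT_SD and 58.1 ± 15.3 in VWAT_HFD. Sfrp1 led in VWAT, at 81.2 ± 6.03 in VWAT_SD and 67.1 ± 2.56 in VWAT_HFD, and ranked below Sfrp2 and Sfrp4 in SWAT, at 23.2 ± 1.20 and 19.5 ± 1.41. Sfrp4 stood at 35.8 ± 6.47 CPM per kb in SWAT_SD and 15.2 ± 1.95 in VWAT_SD, where Rspo1 was higher, at 23.2 ± 2.89.

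Among the ligands, the most abundant per kb was Wnt5a in VWAT_SD, at 16.7 ± 1.02 CPM per kb, followed by Wnt11 at 11.8 ± 0.886 and Wnt5b at 9.27 ± 1.14. In SWAT_SD the order was Wnt2 at 20.2 ± 2.49, Wnt11 at 19.0 ± 2.89, Wnt10b at 15.1 ± 3.57 and Wnt5a at 12.5 ± 2.13, in which neighbours lay within their spread. Wnt2 took the first place among 11 ligands in SWAT_SD and the seventh in VWAT_SD, where it stood at 1.02 ± 0.289. Fzd1 was the most abundant Frizzled per kb in every group (14.9 to 18.1), and Lrp6 exceeded Lrp5 in every group. Wnt16 in VWAT and Frzb in both depots were near the lower end, at 0.0199 ± 0.00326 CPM per kb for Wnt16 in VWAT_SD.

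Promoter sequence was read for members that moved together and for contrast. RefSeq windows on GRCm38.p6 were matched for 22 of the 35 genes, in 25 windows, and the 250 bases upstream of each start were searched on both strands for CTTTGA, the core of the TCF/LEF motif. The Axin2 and Wnt5b windows are shown as examples of genes that were higher in VWAT and fell there on the diet. Rspo1, Wnt6 and Fzd7 also were higher in VWAT_SD and fell, and their windows are not shown. The Wnt11 window is shown because Wnt11 carried a match without a diet call. Capitals mark the match, which reads as TCAAAG where it lies on the opposite strand.
Axin2, chr11:108920099-108920348, plus strand: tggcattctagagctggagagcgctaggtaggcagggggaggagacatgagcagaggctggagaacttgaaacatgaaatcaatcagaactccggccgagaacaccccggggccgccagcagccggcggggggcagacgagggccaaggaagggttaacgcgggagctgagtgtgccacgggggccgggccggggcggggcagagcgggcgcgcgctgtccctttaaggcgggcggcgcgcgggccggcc
Wnt5b, chr6:119449387-119449636, minus strand: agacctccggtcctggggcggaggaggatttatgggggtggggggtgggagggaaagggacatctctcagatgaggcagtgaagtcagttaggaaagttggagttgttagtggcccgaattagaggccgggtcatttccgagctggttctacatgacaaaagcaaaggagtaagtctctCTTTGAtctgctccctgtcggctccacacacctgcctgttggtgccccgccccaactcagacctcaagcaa
Wnt11, chr7:98834862-98835111, plus strand: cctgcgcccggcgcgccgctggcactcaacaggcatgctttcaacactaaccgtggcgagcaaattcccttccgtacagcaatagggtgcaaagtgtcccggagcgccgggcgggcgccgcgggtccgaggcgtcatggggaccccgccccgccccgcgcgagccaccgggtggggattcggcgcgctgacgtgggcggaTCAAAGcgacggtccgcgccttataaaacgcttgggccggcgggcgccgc
The match lay 71 bases before the start in Wnt5b, in 1 of its 3 windows, and 50 bases before the start in Wnt11, in 1 of its windows. No CTTTGA stood in this Axin2 window or in those of Rspo1, Wnt6 and Fzd7. CTTTGA was found in 4 of the 25 member windows (16.0%), those of Frzb, Fzd1, Wnt11 and Wnt5b, against 13.83% of all 32851 windows of the same length. The longer CTTTGAT, which contains it, was found in 2 (8.0%), Wnt11 and Wnt5b, against 3.21% of all windows.

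**Figure D2:**
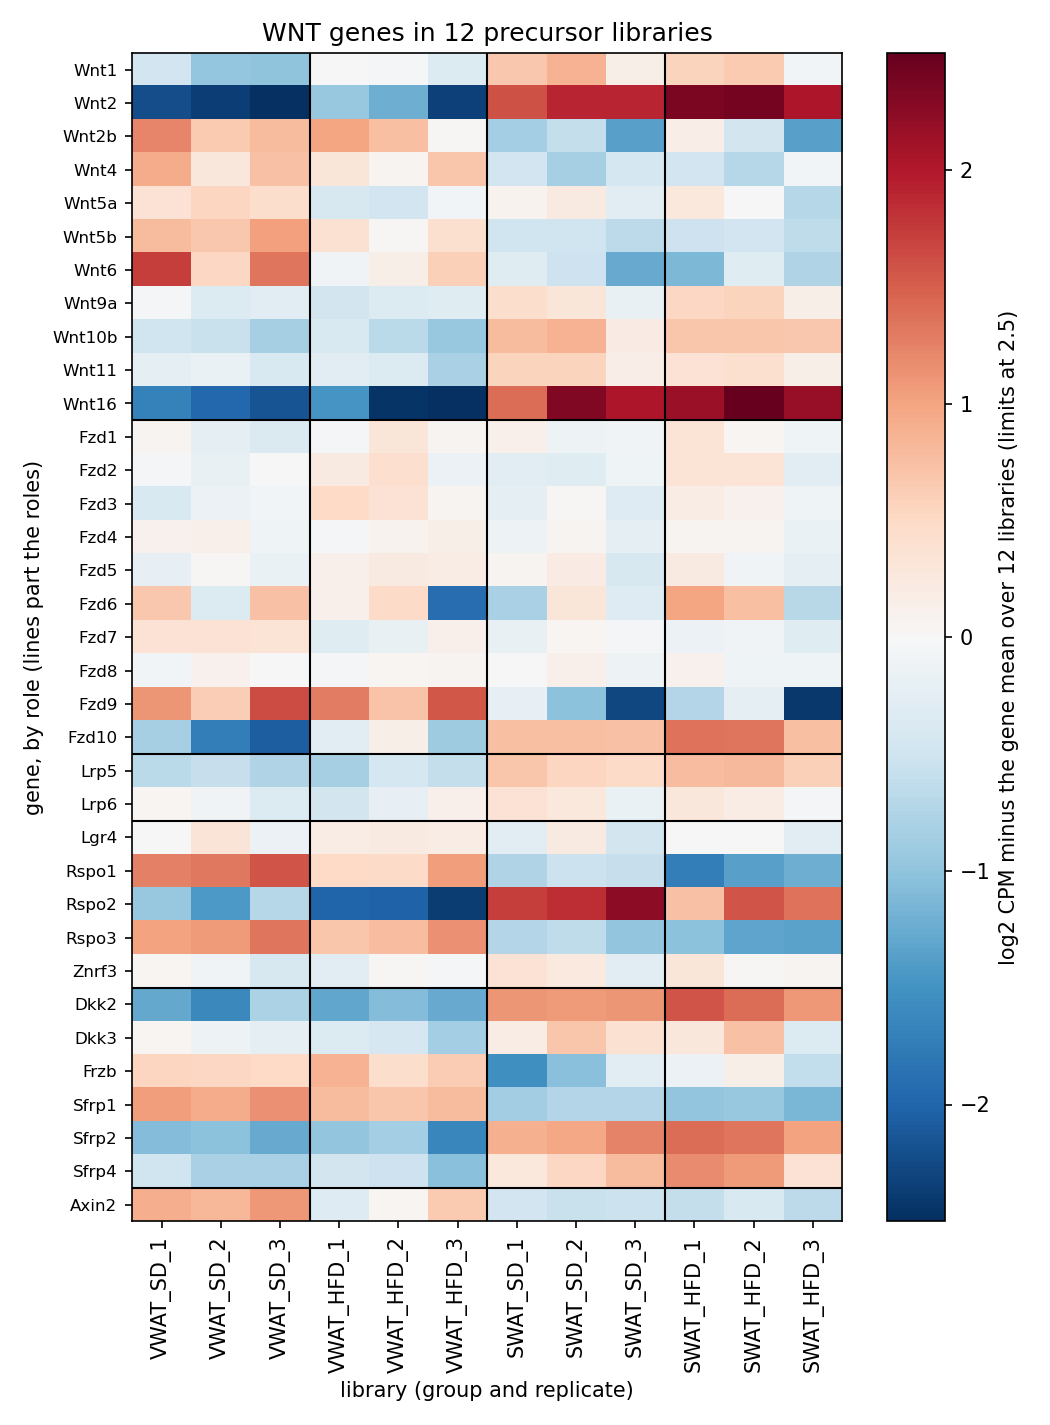
Level of the 35 WNT genes in the 12 libraries, one row per gene grouped by role and one column per library, coloured by the gene's deviation from its own mean on the log2 CPM scale. The VWAT and SWAT blocks differ for Wnt2, Wnt16, Rspo1, Rspo2, Rspo3, Sfrp1, Sfrp2 and Dkk2 in all libraries, while most Frizzled rows show no such split.

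The first comparison asked how visceral and subcutaneous precursors differ on standard diet. Of the 35 genes, 22 differed (11 higher and 11 lower in VWAT) by edgeR's quasi-likelihood test at a Benjamini-Hochberg adjusted p below 0.05 over 14266 genes. That is 62.9% of the members, where 25.7% of all genes tested were called, 13.2% higher and 12.5% lower. The median size of the members' log2 difference was 1.25, against 0.22 over all genes. On the high-fat diet 19 differed, 7 higher and 12 lower in VWAT (54.3%), where 26.8% of all genes were called, 13.4% in each direction. The depot split held on both diets for 17 genes, 7 higher and 10 lower in VWAT, and no member was called in opposite directions. The share of all genes called on both diets was not computed, so this count is not read as a trait of the members. With library size alone as scaling, which moves the median log2 difference of all genes to 0.30, the HFD split became 16 higher and 11 lower. Of all genes, 48.7% were called in that fit. The depot counts include Wnt16, Fzd9 and, on standard diet, Frzb, which met the count minimum through a single depot. In bulk libraries such as these, fewer cells of a type and less RNA per cell cannot be told apart.

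**Figure D3:**
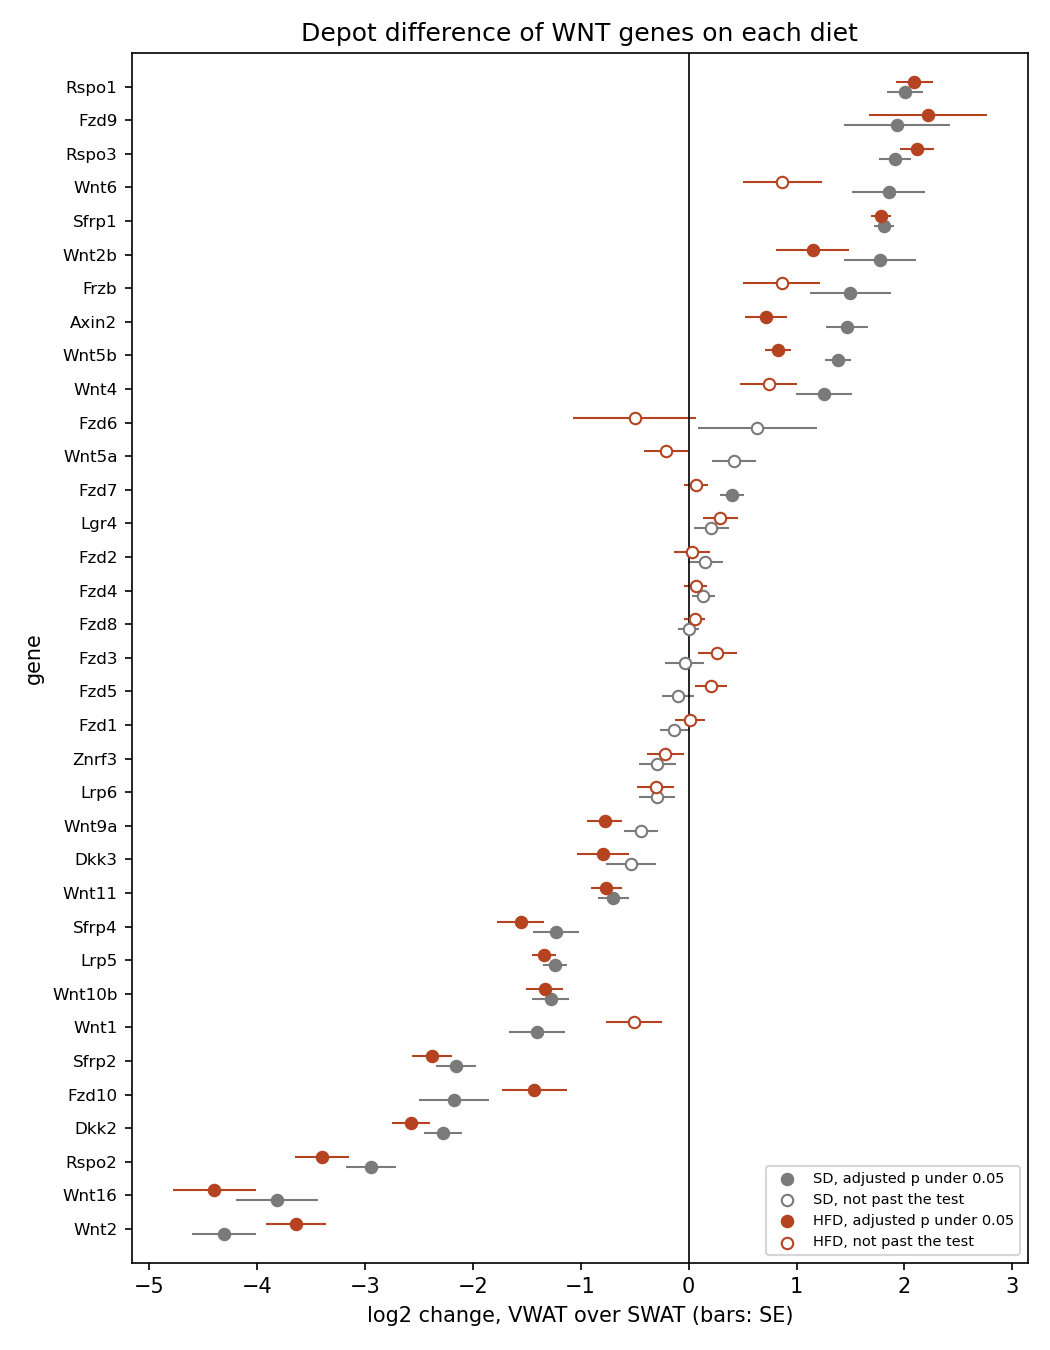
Log2 difference VWAT against SWAT for each WNT gene on standard and on high-fat diet, with bars of 1 SE and filled points for genes that passed the test. Wnt2, Wnt16 and Rspo2 lie furthest to the SWAT side and Rspo1, Rspo3, Fzd9 and Sfrp1 to the VWAT side on both diets.

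Of the 11 ligands, Wnt2, Wnt16, Wnt10b and Wnt11 were lower in VWAT on both diets. Wnt2, a ligand of the beta-catenin route, stood at 2.81, 2.54 and 1.57 CPM in the VWAT_SD libraries and at 39.2, 48.9 and 48.9 in SWAT_SD. On the high-fat diet it stood at 6.74, 5.58 and 2.60 in VWAT and at 66.3, 68.5 and 52.7 in SWAT. Every SWAT library lay far above every VWAT library, and the fold was 19.8 on standard diet (log2 -4.30, SE 0.298, adjusted p = 1.94e-07) and 12.4 on high-fat diet (log2 -3.64, SE 0.281, adjusted p = 5.65e-07). Beside it, 6 progenitor markers of the DPP4 type, Dpp4 and Pi16 among them, summed to 2018 to 2173 CPM in VWAT_SD and 3975 to 4870 in SWAT_SD. They did not all go 1 way, with 1 called higher and 3 lower in VWAT_SD. The 5 committed preadipocyte markers summed to 1561 to 1754 CPM in VWAT_SD and 2488 to 2566 in SWAT_SD, with 0 called higher and 4 lower. The part of these cell states in the Wnt2 difference was not tested.

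Wnt16 was scarce, at 0.102, 0.0846 and 0.0738 CPM in VWAT_SD against 0.861, 1.62 and 1.33 in SWAT_SD, and at 0.118, 0.0602 and 0.0430 in VWAT_HFD against 1.47, 2.01 and 1.48 in SWAT_HFD. The groups did not overlap on either diet. Wnt16 met the count minimum in 6 libraries, all of SWAT, so the choice of members favoured a depot difference here. Because 14 counts in VWAT_SD stood against 149 in SWAT_SD, the ratio is best read with its counting interval, 14.2 times higher in SWAT (95% exact interval 8.19 to 26.6), and 21.5 (12.0 to 42.5) on high-fat diet. These intervals cover counting error only. The tests gave adjusted p = 5.19e-06 and 1.70e-06.

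Wnt10b, the ligand best known for restraining adipocyte formation, averaged 21.3 ± 2.55 CPM in VWAT_SD and 51.5 ± 12.2 in SWAT_SD, and 20.8 ± 4.08 against 52.6 ± 0.613 on high-fat diet. It was 2.43-fold and 2.52-fold lower in VWAT (adjusted p = 8.19e-05 and 5.66e-05). Wnt11, a ligand of the non-canonical type, was 1.62-fold and 1.69-fold lower in VWAT (adjusted p = 0.00285 and 0.00157). Wnt1, whose next protein-coding neighbour is Wnt10b, stood at 0.986, 0.698 and 0.683 CPM in VWAT_SD and 2.18, 2.51 and 1.51 in SWAT_SD. It was 2.65-fold lower in VWAT on standard diet (adjusted p = 0.00115). On high-fat diet the libraries were at 1.37, 1.34 and 1.08 against 2.01, 2.17 and 1.31, the groups overlapped, and it did not pass (adjusted p = 0.179). Wnt9a passed on high-fat diet alone (1.72-fold lower, adjusted p = 0.00228), and its standard diet value of log2 -0.44 had adjusted p = 0.0540 and passed under 8 of the 20 alternatives run, among them leaving out SWAT_SD replicate 3 (0.00644), VWAT_HFD replicate 3 (0.0463) and SWAT_HFD replicate 2 (0.0495) or 3 (0.0396). Whether Wnt1 or Wnt9a differed between diets in their depot split was the test of the interaction, which called neither.

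Wnt5b and Wnt2b were higher in VWAT on both diets. Wnt5b, a non-canonical ligand, stood at 23.7, 22.1 and 28.0 CPM in VWAT_SD against 9.70, 9.77 and 8.71 in SWAT_SD, and at 18.0, 14.2 and 18.2 in VWAT_HFD against 9.63, 9.84 and 8.89 in SWAT_HFD. VWAT exceeded SWAT in every library, by 2.61-fold (adjusted p = 1.55e-06) and 1.78-fold (adjusted p = 0.000174). Wnt2b, a ligand of the beta-catenin route, stood at 10.4, 6.96 and 7.74 CPM in VWAT_SD against 2.49, 2.97 and 1.74 in SWAT_SD, a 3.42-fold difference with adjusted p = 0.00132. On high-fat diet it stood at 8.78, 7.50 and 4.52 in VWAT and at 5.02, 3.22 and 1.75 in SWAT, where the groups overlapped (2.22-fold, adjusted p = 0.0225). That second call was lost, for example, without SWAT_HFD replicate 3 (adjusted p = 0.0896), and it was lost also without VWAT_HFD replicate 1 (0.0846) or replicate 2 (0.0615) and without SWAT_HFD replicate 2 (0.0651).

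Wnt6 and Wnt4 were higher in VWAT on standard diet. Wnt6 stood at 2.91, 1.25 and 2.20 CPM in VWAT_SD and at 0.708, 0.606 and 0.367 in SWAT_SD, without overlap (3.62-fold, adjusted p = 0.00104). On high-fat diet it stood at 0.826, 0.963 and 1.31 against 0.401, 0.712 and 0.520, without overlap, and did not pass (adjusted p = 0.100). Wnt4 was 2.38-fold higher in VWAT_SD (adjusted p = 0.00254), with log2 0.74 and adjusted p = 0.0537 on high-fat diet. That value passed in a fit with a replicate block by diet and number (0.0164), and without VWAT_SD replicate 2 (0.0490), VWAT_HFD replicate 2 (0.0434) or SWAT_HFD replicate 3 (0.0357). Wnt5a, the ligand most abundant per kb in VWAT_SD, was called in neither depot comparison (log2 0.42 and -0.21, adjusted p = 0.160 and 0.506). The first of these passed without SWAT_HFD replicate 3 (0.0485), with only the 6 libraries compared (0.0327) and with library size alone as scaling (0.0169).

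The R-spondins split between the depots in both directions. Rspo1 stood at 40.9, 42.7 and 51.4 CPM in VWAT_SD against 10.2, 11.8 and 11.6 in SWAT_SD, and at 24.2, 23.9 and 35.7 in VWAT_HFD against 5.22, 6.68 and 7.37 in SWAT_HFD. It was 4.02-fold and 4.26-fold higher in VWAT, with no overlap (adjusted p = 9.22e-07 and 1.02e-06). Rspo3 stood at 19.5, 20.3 and 24.8 CPM in VWAT_SD against 5.84, 6.26 and 4.90 in SWAT_SD, and at 15.7, 16.7 and 21.4 against 4.82, 3.93 and 3.87 on high-fat diet. It too was higher in every VWAT library, by 3.77-fold and 4.34-fold (adjusted p = 5.35e-07 and 3.81e-07).

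Rspo2 went the other way. It stood at 1.96, 1.40 and 2.29 CPM in VWAT_SD against 12.5, 13.5 and 17.7 in SWAT_SD, and at 0.944, 0.923 and 0.731 in VWAT_HFD against 6.22, 11.3 and 9.68 in SWAT_HFD. It was 7.68-fold and 10.5-fold lower in VWAT (adjusted p = 6.04e-07 and 3.95e-07). Lgr4, an R-spondin receptor, and Znrf3 were called in neither depot comparison, with Lgr4 at 36.0 ± 6.13 CPM in VWAT_SD and 31.0 ± 8.03 in SWAT_SD. Lgr4 passed as higher in VWAT on standard diet without SWAT_SD replicate 2 (log2 0.44, adjusted p = 0.0435). It also passed on high-fat diet with a replicate block by diet and number (0.0316), and on both diets with library size alone as scaling (0.0395 and 0.00756). Lgr5, another R-spondin receptor and no member by the rule, did differ between the depots and has its values with the surface genes of the route.

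Among the receptors, 7 of the 10 Frizzleds, Fzd1 to Fzd6 and Fzd8, were called in neither depot comparison. The called ones were 3 of 10 on standard diet and 2 of 10 on high-fat diet, shares near the 25.7% and 26.8% of all genes. With library size alone as scaling, Fzd4 was called higher in VWAT on standard diet, and Fzd3, Fzd4, Fzd5, Fzd7 and Fzd8 on high-fat diet. Fzd8 had a TMM-scaled difference of log2 0.00 (SE 0.0958) on standard diet. Fzd9 was higher and Fzd10 lower in VWAT on both diets, both at low levels. Fzd9 stood at 0.476, 0.339 and 0.683 CPM in VWAT_SD against 0.191, 0.108 and 0.0458 in SWAT_SD, and at 0.539, 0.361 and 0.645 against 0.134, 0.186 and 0.0416 on high-fat diet. Fzd9 met the count minimum in 7 libraries, with SWAT_SD replicate 1 the sole library of SWAT, so the choice of members favoured a depot difference. The groups did not overlap, and the ratio was 3.80 (95% exact counting interval 2.21 to 6.96) and 4.90 (2.53 to 10.6), with adjusted p = 0.0100 and 0.00807. The 2 calls were lost without SWAT_SD replicate 2 (0.0515) and without SWAT_HFD replicate 3 (0.0564), respectively.

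Fzd10 stood at 0.867, 0.466 and 0.369 CPM in VWAT_SD against 2.60, 2.60 and 2.57 in SWAT_SD, a 4.50-fold difference (adjusted p = 0.000197). On high-fat diet it stood at 1.28, 1.71 and 0.839 against 3.95, 3.93 and 2.60, 2.69-fold lower in VWAT (adjusted p = 0.00310). Fzd7 stood at 49.6, 49.9 and 49.0 CPM in VWAT_SD against 34.0, 40.2 and 38.2 in SWAT_SD, 1.32-fold higher (adjusted p = 0.0169), a call lost without SWAT_SD replicate 1 (0.0973). On high-fat diet it stood at 31.3, 33.8 and 42.5 in VWAT against 34.9, 36.6 and 31.2 in SWAT, with overlap (log2 0.07, adjusted p = 0.724). Of the co-receptors, Lrp5 was 2.36-fold and 2.53-fold lower in VWAT, at 41.3 ± 2.52 against 97.1 ± 7.93 CPM on standard diet (adjusted p = 1.81e-06) and 42.8 ± 5.85 against 108.5 ± 8.00 on high-fat diet (9.30e-07). Lrp6 was called in neither (log2 -0.29 and -0.31, adjusted p = 0.237 and 0.210), but passed on high-fat diet without VWAT_HFD replicate 3 (log2 -0.47, adjusted p = 0.0456).

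The secreted inhibitors also split. Sfrp1, which binds WNT ligands, stood at 356, 328 and 381 CPM in VWAT_SD against 95.3, 104.6 and 104.1 in SWAT_SD, and at 299.8, 281 and 300.1 against 87.9, 89.8 and 78.3 on high-fat diet. Every VWAT library exceeded every SWAT library, by 3.50-fold and 3.44-fold on average (adjusted p = 1.60e-08 and 2.06e-08). Sfrp2 stood at 129, 133 and 114 CPM in VWAT_SD against 503, 528 and 643 in SWAT_SD, and at 137, 150.1 and 87.7 against 718, 685 and 546 on high-fat diet. It was 4.45-fold and 5.19-fold lower in VWAT, without overlap (adjusted p = 1.42e-06 and 6.67e-07).

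Dkk2, which binds the co-receptors, stood at 10.5, 8.36 and 14.8 CPM in VWAT_SD against 54.8, 53.4 and 55.5 in SWAT_SD, and at 10.4, 12.1 and 10.8 against 76.0, 67.9 and 54.7 on high-fat diet. It was 4.85-fold and 5.94-fold lower in VWAT in libraries that did not overlap (adjusted p = 5.32e-07 and 2.20e-07). Sfrp4 was 2.35-fold and 2.94-fold lower in VWAT (adjusted p = 0.000666 and 9.82e-05). Dkk3 passed on high-fat diet (1.74-fold lower, adjusted p = 0.0255), a call that was lost under 7 of the 20 alternatives run, among them leaving out VWAT_HFD replicate 2 (0.0501) or 3 (0.0705) and SWAT_HFD replicate 1 (0.0595) or 2 (0.179). On standard diet it did not pass (log2 -0.53, adjusted p = 0.117), but did so without SWAT_HFD replicate 3 (0.0454) and with only the 6 libraries compared (0.0252). Frzb passed on standard diet (adjusted p = 0.00962), on 51 against 13 counts in all (ratio 2.95, counting interval 1.58 to 5.90). Leaving out SWAT_SD replicate 1 ended the call (adjusted p = 0.0805). Frzb met the count minimum in 6 libraries, all of VWAT, so the choice of members favoured a depot difference here too.

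Axin2 was higher in VWAT on both diets. Its libraries stood at 17.6, 16.7 and 20.1 CPM in VWAT_SD against 6.73, 6.43 and 6.46 in SWAT_SD, and at 7.58, 9.77 and 14.8 in VWAT_HFD against 6.22, 7.27 and 5.99 in SWAT_HFD. No VWAT library was as low as a SWAT library, and the fold was 2.77 on standard diet (adjusted p = 6.96e-05) and 1.65 on high-fat diet (adjusted p = 0.0153). The second call was lost without SWAT_HFD replicate 3 (0.0600) and with only the 6 libraries compared (0.0653).

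Markers of mesothelial cells, which cover visceral fat, also differed by depot. The 6 that were measured summed to 103 to 131 CPM in VWAT_SD and to 2.76 to 4.59 in SWAT_SD, nearly all of it Wt1 (97.8 to 128 CPM in VWAT_SD), which visceral precursors are also known to express. Msln, a defining mesothelial marker, was at 0.487 to 1.62 CPM in VWAT_SD and at 0 in 2 of 3 SWAT_SD libraries, and Upk3b at 1.43 to 2.18 CPM in VWAT_SD. Markers of mural cells (7 measured) summed to 121 to 149 CPM in VWAT_SD and 31.3 to 39.0 in SWAT_SD, and 4 Schwann cell markers to 8.27 to 11.5 and 31.1 to 36.1. The mural markers did not all go 1 way, with 3 called higher and 2 lower in VWAT_SD. Of the mesothelial markers 4 were called higher and 1 lower, and of the Schwann cell markers 0 and 3. The part of these cells in the depot differences of the WNT genes was not tested.

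The second comparison asked how visceral precursors differ after 3 days of high-fat diet. In VWAT, 9 of the 35 genes changed, 2 up and 7 down (25.7%), where 15.6% of all genes tested were called, 8.64% up and 6.98% down. Wnt2 and Fzd10 rose, and Wnt5a, Wnt5b, Wnt6, Rspo1, Rspo2, Fzd7 and Axin2 fell. The members' median log2 change was -0.03, against -0.02 over all genes. The count rested on single libraries: it was 2 without VWAT_SD replicate 3, 3 without VWAT_HFD replicate 1, 1 without VWAT_HFD replicate 2 and 12 without VWAT_HFD replicate 3. The share of all genes called moved in the same way, to 6.76%, 9.24%, 5.29% and 29.8% in that order. Wnt5b was called under all 19 alternatives run and was the 1 member left without VWAT_HFD replicate 2.

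**Figure D4:**
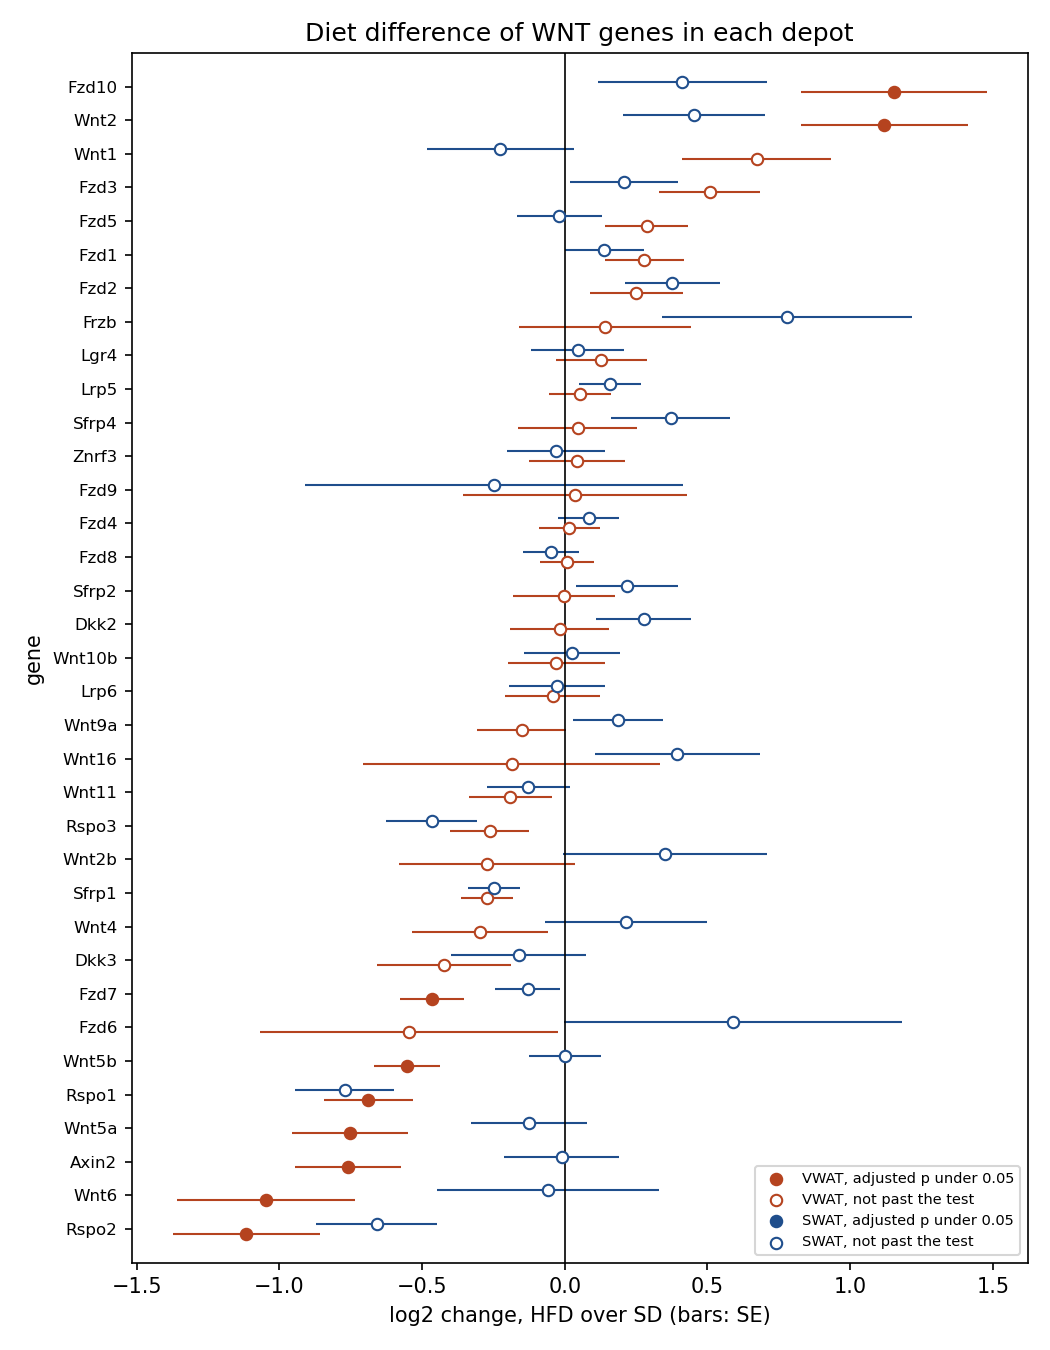
Log2 change HFD against SD for each WNT gene in VWAT and in SWAT, with bars of 1 SE and filled points for genes that passed the test. In VWAT 9 genes passed and in SWAT 0, and Rspo1 and Rspo2 lie below 0 in both depots.

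Of the ligands, Wnt5b fell in VWAT from 24.6 ± 3.01 to 16.8 ± 2.28 CPM. All 3 VWAT_HFD libraries (18.0, 14.2 and 18.2) lay below all 3 VWAT_SD libraries (23.7, 22.1 and 28.0), with log2 -0.55, SE 0.116 and adjusted p = 0.00795. Wnt5a, the best studied non-canonical ligand, stood at 123, 139 and 130.2 CPM in VWAT_SD and at 72.6, 68.5 and 91.5 in VWAT_HFD. These groups did not overlap either, and the change was log2 -0.75 (SE 0.203, adjusted p = 0.0260). The Wnt5a call was lost without any 1 of the 3 VWAT_SD libraries (adjusted p = 0.0510 to 0.0803), without VWAT_HFD replicate 1 (0.0846) and without VWAT_HFD replicate 2 (0.126).

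Wnt6 fell from 2.91, 1.25 and 2.20 CPM to 0.826, 0.963 and 1.31, a change of log2 -1.05 (SE 0.312, adjusted p = 0.0393). The highest VWAT_HFD library exceeded the lowest VWAT_SD library, and 8 of the 19 alternatives lost the call, among them the fit with a replicate block of numbers 1 to 3 (adjusted p = 0.0577) and leaving out VWAT_SD replicate 1 (0.165) or 3 (0.108) or VWAT_HFD replicate 1 (0.138) or 2 (0.146). Wnt2 rose from 2.81, 2.54 and 1.57 CPM to 6.74, 5.58 and 2.60 (log2 1.12, SE 0.293, adjusted p = 0.0224). VWAT_HFD replicate 3 lay below the highest VWAT_SD library, and 6 of 19 alternatives lost the call, among them leaving out VWAT_SD replicate 2 (0.0521) or 3 (0.0971) or VWAT_HFD replicate 1 (0.102) or 2 (0.0963). Wnt1 stood at 0.986, 0.698 and 0.683 CPM in VWAT_SD and at 1.37, 1.34 and 1.08 in VWAT_HFD, with no overlap, but its log2 change of 0.67 did not pass (SE 0.261, adjusted p = 0.0979). With a replicate block its adjusted p was 0.0493.

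Of the R-spondins, Rspo1 fell from 40.9, 42.7 and 51.4 CPM to 24.2, 23.9 and 35.7 (log2 -0.69, SE 0.157, adjusted p = 0.0116). Rspo2 fell from 1.96, 1.40 and 2.29 CPM to 0.944, 0.923 and 0.731 (log2 -1.12, SE 0.258, adjusted p = 0.0127). In neither gene did the diet groups overlap. The Rspo1 call was lost without VWAT_SD replicate 3 (0.0616), VWAT_HFD replicate 1 (0.0502) or VWAT_HFD replicate 2 (0.0720), and that of Rspo2 without VWAT_SD replicate 3 (0.0617) or VWAT_HFD replicate 2 (0.0502). Rspo3 stood at 21.5 ± 2.83 and 18.0 ± 3.05 CPM, with overlapping libraries (log2 -0.26, adjusted p = 0.210). Without VWAT_HFD replicate 3 its log2 change was -0.41 and its adjusted p 0.0304.

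Of the receptors, Fzd7 fell from 49.6, 49.9 and 49.0 CPM to 31.3, 33.8 and 42.5, without overlap (log2 -0.47, SE 0.112, adjusted p = 0.0151). Leaving out VWAT_HFD replicate 1 (0.0597) or VWAT_HFD replicate 2 (0.0825) ended the call. Fzd10 rose from 0.867, 0.466 and 0.369 CPM to 1.28, 1.71 and 0.839, with the lowest VWAT_HFD library below the highest VWAT_SD library (log2 1.15, SE 0.326, adjusted p = 0.0312). The call was lost in 5 of 19 alternatives, among them leaving out VWAT_SD replicate 2 (0.105) or 3 (0.124) or VWAT_HFD replicate 1 (0.0760) or 2 (0.160). The other 8 Frizzleds, both co-receptors, Lgr4, Znrf3 and all 6 secreted inhibitors were not called. Sfrp1 came closest among the inhibitors: its VWAT_HFD libraries all lay below its VWAT_SD libraries, with log2 -0.27, SE 0.0907 and adjusted p = 0.0582. It passed under 4 of 19 alternatives, among them DESeq2 (0.0200) and leaving out VWAT_HFD replicate 3 (0.0392) or SWAT_HFD replicate 3 (0.0488). Fzd3 had log2 0.51 and adjusted p = 0.0685, and passed without VWAT_HFD replicate 3 (0.0188) and with limma voom (0.0495).

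Axin2 fell in VWAT from 17.6, 16.7 and 20.1 CPM to 7.58, 9.77 and 14.8, with all VWAT_HFD libraries below all VWAT_SD libraries. The change was log2 -0.76 (SE 0.185, adjusted p = 0.0163), a 1.69-fold fall. The highest of the diet libraries was replicate 3. The call was lost without VWAT_SD replicate 3 (0.0713) or VWAT_HFD replicate 2 (0.0851), and when the fit held the 6 VWAT libraries alone (0.0661).

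**Figure D5:**
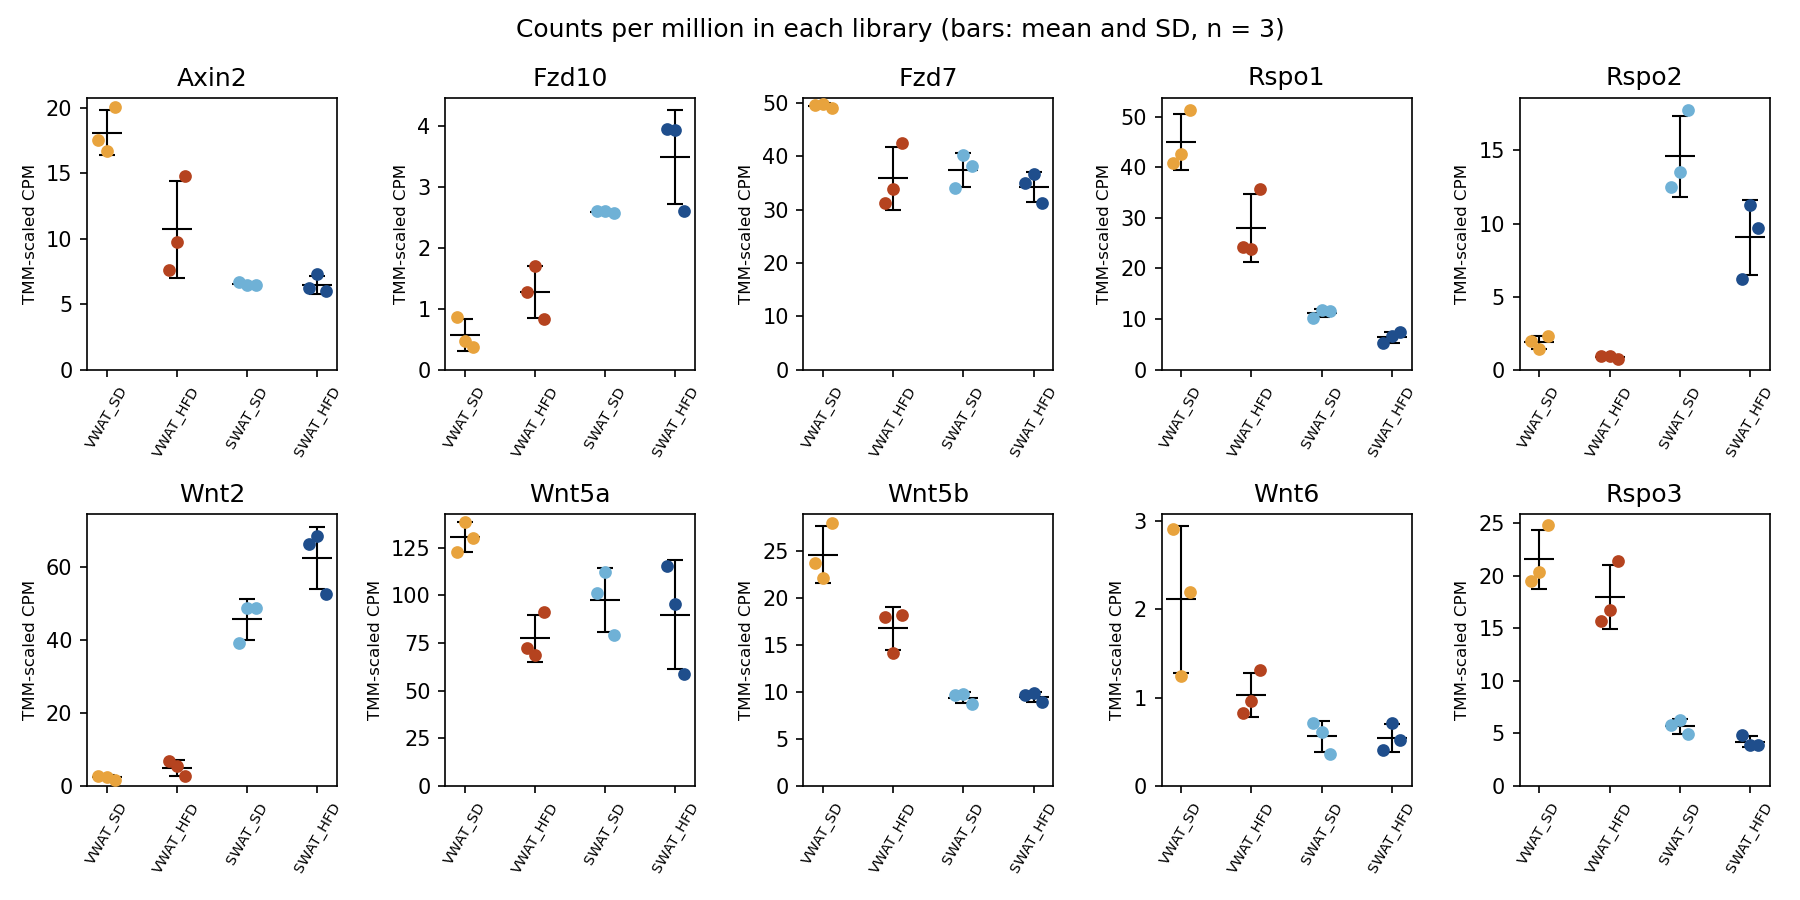
TMM-scaled CPM in each of the 12 libraries for the 9 WNT genes that changed in VWAT on the high-fat diet and for Rspo3, one panel per gene from 0, with points for libraries and bars for mean and SD (n = 3). VWAT_HFD replicate 3 lies nearest the VWAT_SD libraries for Axin2 (14.8), Fzd7 (42.5), Rspo1 (35.7), Wnt2 (2.60) and Wnt5a (91.5).

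In 8 of those 9 genes VWAT_HFD replicate 3 was the diet library closest to the VWAT_SD mean, and the exception was Rspo2. The same share over all genes was not computed. That library also lay nearest VWAT_SD on the second principal component (-2.05, against 37.0 and 46.0), so the count is not read as a trait of the members. Markers of cycling cells also moved with the diet. The 5 genes (Mki67, Top2a, Cdk1, Ccnb1 and Bub1) had a summed level of 15.3 to 25.0 CPM in the VWAT_SD libraries and of 73.8 to 284 CPM in the VWAT_HFD libraries, and Mki67 was lowest among the diet libraries in replicate 3, at 32.4 CPM against 61.0 and 114. In SWAT the cycling sum went from 8.11 to 14.1 up to 63.2 to 89.2 CPM. The part of dividing cells in the changes of the WNT genes was not tested. The mesothelial sum in VWAT was 103 to 131 CPM on standard diet and 106 to 122 on high-fat diet. Sums of other marker lists in VWAT did not overlap between the diets: 4 Schwann cell markers went from 8.27 to 11.5 CPM down to 6.20 to 7.68, and 9 leukocyte markers from 11.3 to 17.7 down to 7.68 to 10.7. The 8 gate and mesenchymal markers went from 8053 to 9135 CPM up to 10440 to 18570, with Col1a1, Thy1 and Itgb1 called, and the 5 committed preadipocyte markers from 1561 to 1754 up to 1868 to 1961. Of the mural markers Cspg4 and Notch3 rose and Myh11 fell, and the part of all these cells was not tested either.

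The third comparison asked the same of subcutaneous precursors. In SWAT no WNT gene was called by edgeR, where 1.11% of all genes tested were called, 0.967% up and 0.147% down. At an unadjusted p below 0.05 there were 5 members, 14.3% of 35, where 14.9% of all genes passed that level. DESeq2 called 1 and limma voom 0. These 5 were Rspo1, Rspo2, Rspo3 and Sfrp1, all at lower levels on the high-fat diet with no overlap, and Fzd2, at a higher level with overlap.

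Rspo1 stood at 10.2, 11.8 and 11.6 CPM in SWAT_SD and at 5.22, 6.68 and 7.37 in SWAT_HFD, with log2 -0.77, SE 0.174 and adjusted p = 0.0542. It passed under 6 of the 19 alternatives, with DESeq2 (0.00195), library size alone (0.0269), the 6 SWAT libraries alone (0.0180), the replicate block (0.0171), and without VWAT_HFD replicate 2 (0.0478) or replicate 3 (0.00491). Rspo2 stood at 12.5, 13.5 and 17.7 CPM in SWAT_SD and at 6.22, 11.3 and 9.68 in SWAT_HFD (log2 -0.66, SE 0.212, adjusted p = 0.166). Rspo3 stood at 5.84, 6.26 and 4.90 CPM against 4.82, 3.93 and 3.87 (log2 -0.47, SE 0.160, adjusted p = 0.198). For each of the 3 R-spondins, and for Sfrp1, the SWAT_HFD libraries lay below the SWAT_SD libraries, and none passed the adjusted threshold. Those 4 of 35 members stand beside 10.2% of all genes with groups apart in that direction, a share near the background. Wnt2 stood at 39.2, 48.9 and 48.9 CPM on standard diet and 66.3, 68.5 and 52.7 on high-fat diet, the 1 member that was higher without overlap, where 11.6% of all genes were (log2 0.45, SE 0.248, adjusted p = 0.427).

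The last comparison tested whether the diet change differed between the depots. No WNT gene and no gene of the 14266 passed (0% called), and 4 members had an unadjusted p below 0.05 (11.4%) where 7.19% of all genes did. DESeq2 and limma voom also called 0 members. The lowest p-values were those of Wnt5b (log2 difference of changes -0.55, adjusted p = 0.506), Axin2 (-0.75, 0.579), Wnt1 (0.90, 0.617), Wnt5a (-0.63, 0.690) and Fzd7 (-0.34, 0.710). Axin2 stood at 6.54 ± 0.167 CPM in SWAT_SD and 6.50 ± 0.682 in SWAT_HFD, Wnt5b at 9.39 ± 0.592 and 9.45 ± 0.502, and Fzd7 at 37.5 ± 3.15 and 34.2 ± 2.76. Wnt5a stood at 101, 112 and 79.4 CPM in SWAT_SD and 115, 95.7 and 58.7 in SWAT_HFD. So a fall called in VWAT and not in SWAT was not shown to differ between the depots. Without VWAT_HFD replicate 3, Axin2 passed the interaction (log2 -1.05, adjusted p = 0.0256).

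Genes of the WNT route outside the named families were counted in the same fit. Of 18 tested genes for secretion, other co-receptors and surface modulators, 3 rose and 3 fell in VWAT on the diet (33.3%, where 15.6% of all genes were called). Cthrc1, a secreted collagen-repeat protein that binds WNT and Frizzled proteins, rose 8.70-fold (adjusted p = 0.00204), from 1.31 to 1.41 CPM up to 16.8, 16.0 and 2.78, the last in VWAT_HFD replicate 3. Ror2, a receptor for Wnt5a, rose 1.66-fold (adjusted p = 0.00960), and Gpr124, a co-activator of Wnt7 signalling, rose 1.47-fold (0.0180). Porcn, the enzyme that attaches the lipid to WNT ligands, fell 1.46-fold (0.0268). Without VWAT_HFD replicate 2 or VWAT_SD replicate 3, the Ror2, Gpr124 and Porcn calls were lost, and across the 19 alternatives 1 to 4 of the list rose and 0 to 3 fell. None of the 18 passed in SWAT. Between depots, 5 were higher and 6 lower in VWAT on standard diet (61.1%, against 25.7% of all genes), and 4 higher and 6 lower on high-fat diet (55.6%, against 26.8%).

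The largest of these depot differences were in Ptk7, a planar polarity co-receptor, and Lgr5, an R-spondin receptor. Ptk7 was 24.7-fold and 25.3-fold higher in VWAT (adjusted p = 7.54e-10 and 8.01e-10), at 35.0 against 1.43 CPM on standard diet. Lgr5 was lower in VWAT, with 42 counts in VWAT_SD against 690 in SWAT_SD, a ratio of 21.9 (95% exact counting interval 16.0 to 30.6), and 6 against 508 on high-fat diet (ratio 138, interval 63.1 to 379). Ror1, another receptor of the Wnt5a type, was 2.54-fold and 2.55-fold higher in VWAT, and Apcdd1, a membrane inhibitor of the route, 2.17-fold and 2.40-fold lower.

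Inside the cell, 2 of 35 tested genes of the beta-catenin route rose and 2 fell in VWAT on the diet, 11.4% of the list where 15.6% of all genes were called. The kinases Csnk1a1 and Csnk1g2 rose 1.22-fold each (adjusted p = 0.0313 and 0.0406), while Dvl2, a transducer below Frizzled, fell 1.23-fold (0.0296) and the co-repressor Tle2 fell 1.85-fold (0.0336). Each of these 4 calls was lost without VWAT_HFD replicate 2, among other libraries. None of the 35 passed in SWAT, and the TCF/LEF genes Tcf7 and Lef1 were too low to be tested. Between depots on standard diet 6 were higher and 6 lower in VWAT, led by Tle1 (1.79-fold higher), Tle2 (3.23-fold lower), Cxxc4 (3.44-fold higher) and Cxxc5 (1.41-fold lower). On high-fat diet 5 were higher and 6 lower. These depot counts were 34.3% and 31.4% of the list, against 25.7% and 26.8% of all genes.

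Of 27 tested genes of the planar polarity and calcium route, 4 rose and 2 fell in VWAT on the diet (22.2%, against 15.6% of all genes). The calcium-driven factors Nfatc1 and Nfatc2 rose 2.46-fold and 2.04-fold (adjusted p = 0.000793 and 0.0110), while Dact2 and Nfatc4 fell 1.70-fold and 1.24-fold (0.0101 and 0.0117). The Nfatc2 and Nfatc4 calls were lost without VWAT_HFD replicate 2. In SWAT 2 rose (7.41%, against 1.11% of all genes), Nfatc1 by 1.65-fold (adjusted p = 0.0402) and the kinase Camk2a by 2.22-fold (0.0453), and each call was lost in 10 of the alternatives run. Between depots 8 were higher and 3 lower in VWAT on standard diet, and 7 and 4 on high-fat diet (40.7% each, against 25.7% and 26.8% of all genes), led by Daam2, which was 2.92-fold and 2.97-fold higher in VWAT.

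Of 22 tested genes that are commonly reported as beta-catenin targets, 6 rose and 3 fell in VWAT on the diet (40.9%, against 15.6% of all genes). The lists share genes: Lgr5 and Apcdd1 are also in the surface list, and Dact1 in the planar polarity list. Lgr5 counts as a fall in both of its lists (adjusted p = 0.0427), on 42 counts in VWAT_SD and 6 in VWAT_HFD. Birc5, which is also a cell division gene, rose 8.35-fold (adjusted p = 0.00133), Ccnd1, a cyclin, 1.99-fold (0.00501), and the adhesion receptor Cd44 1.88-fold (0.00295), while Id2 fell 1.82-fold (0.000869). The members that passed did not all move in one direction. In SWAT Sox9 and Birc5 rose, 9.09% of the list against 1.11% of all genes (1.78-fold and 6.19-fold, adjusted p = 0.0230 and 0.0301), and both calls were lost without any 1 of the SWAT_SD libraries and without SWAT_HFD replicate 2. Between depots 3 were higher and 9 lower in VWAT on standard diet, and 4 and 9 on high-fat diet (54.5% and 59.1%, against 25.7% and 26.8% of all genes). Twist1 was 2.29-fold and 2.07-fold lower, and Wisp2 2.90-fold and 3.26-fold lower in VWAT, while Sox9 was 2.43-fold higher on standard diet. None of the genes in these 4 lists passed the interaction.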

How the data were processed

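RNA from 12 pooled precursor libraries was measured. The deposited table holds read counts per gene, made by the authors with TopHat and HTSeq on mm9 per the submitters' processing notes. Versions and the strand setting of the counting are not given in the sources used here, so overlapping or antisense genes are uncertain. Of all counts, 20.4% to 28.09% lay in 3 rows that name no gene and were left out. One model over all 12 libraries was fitted with edgeR 4.0.16 (R 4.3.3; TMM scaling, filterByExpr, quasi-likelihood F test, Benjamini-Hochberg over 14266 genes; 132 were removed), with 5 comparisons and a threshold of 0.05. SEs are the log2 change over the square root of F. Alternatives used DESeq2 1.42.0, limma 3.58.1 voom, other scalings, no filter, replicate blocks and leaving out each library. CPM are TMM-scaled, and per-kb values use merged exons of GENCODE M21 (GRCm38), a different build from the counts.

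The libraries are described as separate pools of mice, and p-values measure the spread between them. Same-numbered VWAT_SD and SWAT_SD libraries deviated together (r = 0.177, 0.178 and 0.398), which was read as pairing there. The main tests held no replicate block, so their p-values do not use this pairing. Replicate blocks were fitted only as alternatives. No other groups met the rule for pairing, the HFD libraries of the 2 depots among them (r = -0.0754, 0.184 and 0.0698), though the block by diet and number paired these too. Members, lists and tests were chosen with earlier results of these data known. Values in every library are given for members passing in a diet comparison, the 5 lowest p-values of the interaction, and the 6 largest depot differences in each direction. Of each pathway list, up to 4 genes with the lowest adjusted p are named per comparison, and Lgr5 is added because lists share it. The marker genes were fixed by name.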

Additional observations from a re-analysis of the deposited data

How the results depend on the processing

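In the VWAT diet comparison the count of 9 members was 5 when only its 6 libraries were fitted, and it ran from 1 to 12 when each library was left out in turn. The share of all genes called was 8.87% in the first case and ran from 5.29% to 29.8% in the second. In the SWAT diet comparison the count of 0 became 2 with library size as the only scaling and 1 with DESeq2, with only the 6 libraries compared and with the replicate block of numbers 1 to 3, and it ran from 0 to 1 without single libraries. In those 4 fits 1.84%, 3.76%, 2.57% and 1.73% of all genes were called, and 0% to 4.29% without single libraries. The interaction count ran from 0 to 1, the SD depot count from 20 to 25 and the HFD depot count from 17 to 20 without single libraries. Of all genes, 0% to 0.942%, 20% to 30.8% and 19.9% to 30.5% were called in those fits. The cause was not tested. Of the members called, all 19 or 20 alternatives kept 1 of 9 in the VWAT diet comparison, 19 of 22 on SD and 15 of 19 on HFD. The same shares over all genes were not computed. The next counts cover called members and those uncalled members that gained a call under some alternative. Uncalled members that never gained a call are left out of them. Here 1324 of 1424 values kept their side of the threshold and direction, 52 lost the call, 48 gained it and 0 reversed. With the replicate block by diet and number, the SD depot count was 22 with no call changed and the HFD depot count 21. Of all genes, 27.4% and 28% were called there. With the block of numbers 1 to 3, the VWAT diet count was 9, the SD depot count 23 and the HFD depot count 20, where 16%, 25.7% and 26.5% of all genes were called. Groups of 3 pools limit all counts, and for Wnt16, Fzd9, Frzb and Lgr5 depth limits the ratio.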
